A study of Mus musculus with 15 samples.

Results

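The comparison described here set mouse intestinal organoids that make R-spondin 3 from a Ptprk-Rspo3 fusion (P-Rspo3) against wild type organoids that receive R-spondin with the medium (WT). Members were chosen by the genotype given for each library, which put 5 libraries in P-Rspo3 (replicates 15d, 4d, M, F and NAIVE_F) and 6 in WT (replicates 1, 2, 5, 6, NAIVE and LIPO), so that 11 of the 15 RNA sequencing libraries of the series were used. The other 4 libraries, of organoids that lack Apc, served as a level to compare with in a single place below. The question was which expression levels and pathways stay the same, and which shift, when R-spondin comes from the fusion.

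All libraries came from C57B6/129 mice and were made from polyA RNA of small intestinal organoids, which are epithelial cultures grown in Matrigel. The 4 WT libraries numbered 1, 2, 5 and 6 carried Apc flox/flox alleles that had not been recombined. The 2 WT libraries NAIVE and LIPO were labelled Dox naive, meaning organoids of mice with a doxycycline-inducible Cas9 and guide RNAs (R26-rtTA/c3GIC9) in which Cas9 had not been switched on. The 5 P-Rspo3 libraries were labelled Ptprk-Rspo3 and were taken to come from organoids of this dox-inducible kind. The titles of P-Rspo3 15d and 4d (EN15d and EN4d) name 15 and 4 days, so these libraries carry different times. The rearranged cultures were selected as bulk populations by withdrawal of R-spondin and not as single clones. WT was kept in ENR medium (EGF, Noggin and R-spondin) and P-Rspo3 in EN medium, so the medium and the genotype cannot be told apart. The kind of line differs too, since WT holds both kinds and P-Rspo3, as assigned here, only the dox-inducible kind. NAIVE_F was nearer to flox WT in all 21 genes called between the WT lines, so its line is uncertain. Fits below that use the line rest on this assignment. The labels do not say which cultures came from separate mice, so p-values measure the spread between these libraries, part of which may be technical. The total count on genes ran from 27466904 to 35090893 reads over the 11 libraries (median 29871886).

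R-spondins are secreted proteins that bind LGR4, LGR5 and LGR6 on intestinal stem cells. This keeps the membrane ubiquitin ligases RNF43 and ZNRF3 from removing Frizzled, the Wnt receptor, and so strengthens Wnt signals that are already present. Normal crypts receive R-spondin from the cells beneath the epithelium, and cultured epithelium needs it in the medium. In the Ptprk-Rspo3 fusion, the promoter and first exon of the receptor phosphatase gene Ptprk drive Rspo3, which the epithelium itself does not normally express.

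On GRCm38 both genes lie on chromosome 10. Ptprk spans 28074820 to 28597397 (plus strand) and Rspo3 spans 29452416 to 29535867 (minus strand), so the fusion needs an inversion of the interval between them. The guides, which target the first intron of each gene, are shown because they define the P-Rspo3 group. Capitals mark the 12 bases next to the PAM.
Rspo3-proxA: gatcatccCAAATTCCCGCC
Ptprk-proxB: ggggtaagCCTTCCGGGAAT
The fused message joins exon 1 of Ptprk (28074820 to 28075177) to exon 2 of Rspo3 (29506388 to 29506579). Both first exons hold 97 coding bases, so exon 2 is entered at the same place in the reading frame. The junctions below were built from GENCODE transcripts and were not read from these libraries, and capitals mark the first 15 bases of Rspo3 exon 2. Counts per gene do not show which first exon a read belongs to.
Ptprk-Rspo3 junction: gccagttctcagcagTGCATCCTAATGTCA
Rspo3 junction: ggcgccagcgaagaaTGCATCCTAATGTCA

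Some libraries stood apart from others with the same label. The processed pseudogene Rps3a3, a copy of a ribosomal protein gene, had 3549 to 5973 reads in WT NAIVE and P-Rspo3 15d, 4d, M and F, and 21 to 42 reads in WT 1, 2, 5, 6 and LIPO and P-Rspo3 NAIVE_F. These 5 and 6 libraries are called the high set and the low set from here on, a division made after the values were seen. The Apc libraries, which derive from the flox lines, had at most 30 reads. In 92 genes every library of the high set lay more than 1 log2 unit above every library of the low set, and 58 of these genes were pseudogenes. The 92 genes lay on 20 chromosomes, and 89 of them were also above every Apc library. Only 5 genes were divided as widely in the other direction. Near-identical copies share reads, so the level of any single pseudogene is uncertain. The set also went with protein-coding genes. Eif5, a translation initiation factor gene on chromosome 12, had 979 to 1356 CPM (counts scaled to a common library size) in the high set and 470 to 680 in the low set, and Brf1, a subunit gene of an RNA polymerase III factor on the same chromosome, had 87.2 to 109 and 36.2 to 45.1.

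A second group of genes divided the libraries at another place. Gm4737 had 495 to 772 reads in WT LIPO, WT NAIVE and P-Rspo3 15d, 4d, M and F, and 15 to 31 reads in WT 1, 2, 5 and 6 and in P-Rspo3 NAIVE_F. WT LIPO thus stood with the dox-inducible lines for Gm4737 and with the flox lines for Rps3a3. P-Rspo3 NAIVE_F stood with the flox lines for both genes, although it held 729 reads of Rspo3. The title NAIVE_F names a naive culture where the genotype names the fusion. What divides the sets was not tested, and the comparison was therefore repeated inside the sets and without these 2 libraries, NAIVE_F and LIPO. In the high set 4 P-Rspo3 libraries met 1 WT library, and in the low set 1 P-Rspo3 library met 5 WT libraries.

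**Figure D1:**
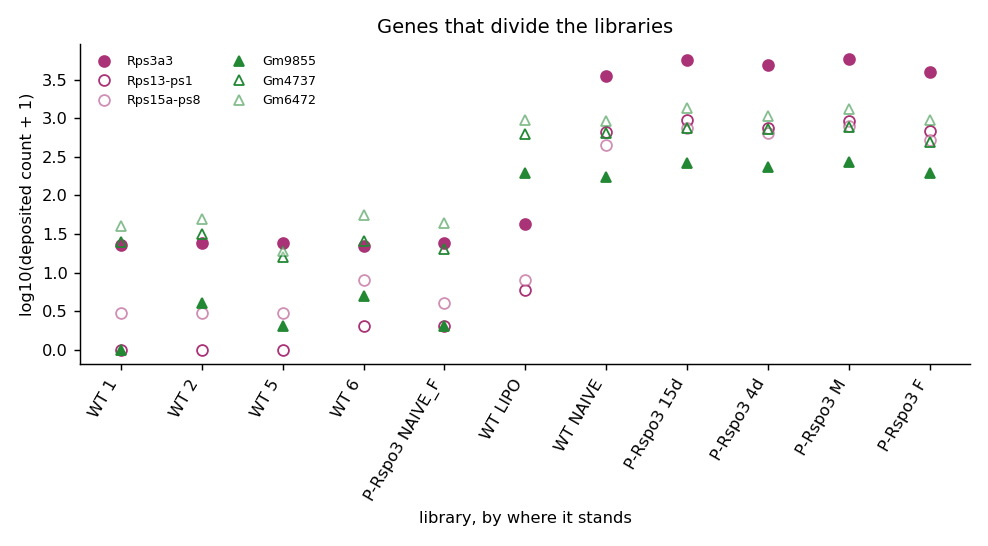
Deposited read counts, as log10(count + 1) on the vertical axis, of 6 genes in the 11 libraries on the horizontal axis. Circles are the pseudogenes Rps3a3, Rps13-ps1 and Rps15a-ps8, high in 5 libraries, and triangles are Gm9855, Gm4737 and Gm6472, high in these 5 and in WT LIPO, while P-Rspo3 NAIVE_F is low for all 6.

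Rspo3 was read in every P-Rspo3 library and was practically not read in WT. Its counts were 1079 in 15d, 539 in 4d, 1049 in M, 867 in F and 729 in NAIVE_F. In WT a single read was counted in replicate 1 and none in the other 5 libraries. The P-Rspo3 libraries lay between 18.3 CPM in 4d and 33.7 CPM in M, and the groups did not overlap. Over the summed libraries, 4263 reads against 1 gave a ratio of 5141, with a 95% interval of 922 to 203105 that covers counting error only. The fitted log2 fold change (log2FC) was 11.50 (SE 0.36, adjusted p = 5.22e-09, edgeR). Mean FPKM (a level per length of the gene) was 9.59 ± 2.24 (SD, n = 5) when the fusion was present and 0.00187 ± 0.00457 (SD, n = 6) without it. The two-sided exact permutation test gave p = 0.00433, which is the smallest that 5 against 6 libraries allow, and 0.0519 after adjustment over the 12 genes tested in this way. Without NAIVE_F and LIPO the exact permutation test gave p = 0.0159, again the smallest possible.

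Ptprk, which gives its promoter to the fusion, had 60.1 CPM in 15d, 106 in 4d, 62.3 in M, 54.1 in F and 86.0 in NAIVE_F. WT ranged from 105 to 143 CPM around a median of 111. All P-Rspo3 libraries but 4d lay under the WT range, and 4d, the library with the least Rspo3, lay inside it. Mean FPKM was 9.21 ± 2.67 (SD, n = 5) against 14.5 ± 2.07 (SD, n = 6), with p = 0.00866 in the exact permutation test and 0.0519 after adjustment. The log2FC of -0.65 (SE 0.16) did not pass the test over all genes (adjusted p = 0.197, edgeR). Dox-naive and flox WT were alike in Ptprk, with a log2FC of -0.08 between them. Per length, Rspo3 and Ptprk reached levels of the same order in the P-Rspo3 libraries. Of the genes between them with an FPKM of at least 1, Echdc1, an enzyme gene, had 35.3 ± 9.87 FPKM (SD, n = 5) against 35.9 ± 3.05 in WT (SD, n = 6). Rnf146, a ubiquitin ligase gene that acts on Axin, had 16.5 ± 4.14 and 17.0 ± 1.30. In both genes 15d was the lowest P-Rspo3 library, far under the others. The small RNA gene Gm25596 ranged from 0.00 to 180 FPKM in P-Rspo3 and from 0.00 to 83.5 in WT. None of the 3 passed the exact permutation test, with p = 0.887 for Echdc1, 0.840 for Rnf146 and 0.303 for Gm25596.

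**Figure D2:**
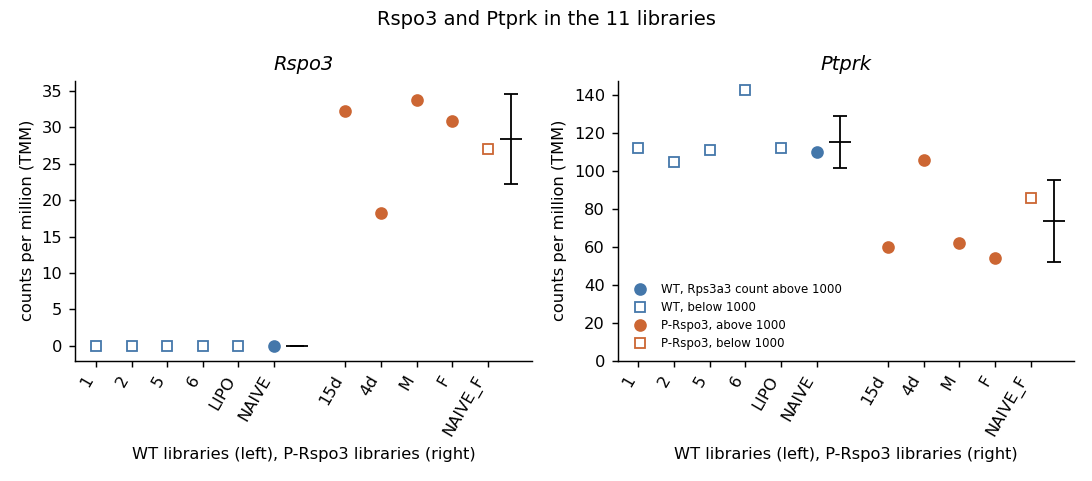
TMM-normalized CPM of Rspo3 (left) and Ptprk (right) in the 6 WT and 5 P-Rspo3 libraries, with the mean and SD of each group as a bar to the right of its points. Filled circles are libraries with more than 1000 reads of Rps3a3. Rspo3 lies between 18.3 and 33.7 in P-Rspo3, and Ptprk of 4d lies among the WT libraries.

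Across all genes the groups were close. Of 15903 genes tested, Rspo3 was the single gene called higher in P-Rspo3 (0.00629%) and no gene was called lower (0.00%) at an adjusted p under 0.05 and an absolute log2FC above 1 (edgeR). An unadjusted p under 0.05 was found for 2110 genes (13.3%), and DESeq2, run with no prior on fold changes, gave 14 higher and 80 lower calls. For 11933 genes (75.0%) the 95% interval of the log2FC lay inside -1 to 1, and these genes are referred to as held within 2-fold. Without NAIVE_F and LIPO the counts were again 1 higher (0.00625%) and 0 lower among 15992 genes, with 71.0% held. With the set of libraries as a term, 1 gene was called higher and 0 lower, with 70.0% held. Inside the high set no gene was called higher and Xist alone lower (0.00556% of 17997, 51.2% held), and inside the low set Rspo3 alone was called (0.00545% of 18347, 52.0% held). No gene passed the test of whether the difference itself differed between the sets (388 genes, or 2.44%, had an unadjusted p under 0.05), but that test rests on 1 WT library in the high set and 1 P-Rspo3 library in the low set and says little about whether the sets differ. The median absolute log2 difference between 2 libraries was 0.177 over pairs of P-Rspo3 libraries, 0.194 over pairs of P-Rspo3 and flox WT, 0.163 over pairs of P-Rspo3 and dox-naive WT, and 0.183 over pairs of flox WT (11675 genes). The single pair of dox-naive WT libraries differed by 0.102, less than any pair of P-Rspo3 and dox-naive WT (0.144 to 0.226).

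The groups are described below by lists of genes, for which no test of a list was made. Libraries of the groups did not overlap, in CPM, for 132 genes higher in P-Rspo3 (0.830%) and 119 genes lower (0.748%), and the median log2FC over all genes was 0.00. Of all genes tested, 48.4% had a negative log2FC and 13.3% an unadjusted p under 0.05.

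**Figure D3:**
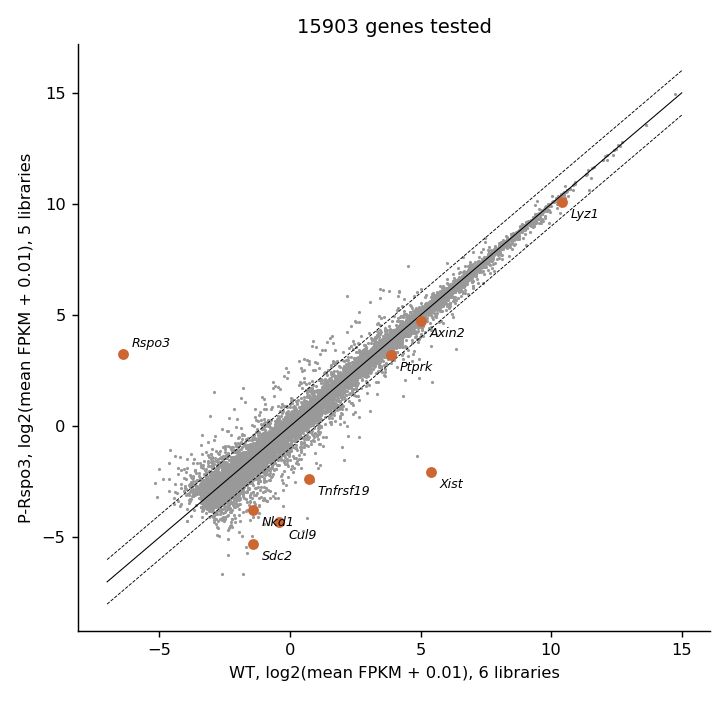
Mean FPKM of 15903 genes in 5 P-Rspo3 libraries against 6 WT libraries, both as log2(mean FPKM + 0.01). The solid line marks equal levels and the dashed lines a 2-fold difference. Rspo3 stands far above the lines, and Xist, Cul9, Sdc2, Nkd1 and Tnfrsf19 lie below them.

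The receptors and ligases of R-spondin that could be tested were held within 2-fold. Of 9 genes on this list 5 were tested, of which Rspo3 was called and the other 4 were held. Lgr4, the receptor found throughout the epithelium, had 154 to 187 CPM in P-Rspo3 and 149 to 193 in WT, with a log2FC of 0.01 (95% interval -0.16 to 0.17). Lgr5, the receptor that marks crypt stem cells, had 149, 87.1, 138, 56.5 and 137 CPM in 15d, 4d, M, F and NAIVE_F and 91.9 to 185 in WT, so that F and 4d lay under the WT range and the other 3 inside it. Its log2FC was -0.26 (interval -0.81 to 0.30) and turned to 0.11 against dox-naive WT alone and with the line as a term. Here and below, both fits set P-Rspo3 against the same dox-naive WT libraries and are not separate checks. Rnf43, a ligase gene that is itself a Wnt target, had 57.6 to 85.8 CPM in P-Rspo3 and 75.6 to 115 in WT, with a log2FC of -0.46 (interval -0.76 to -0.16, adjusted p = 0.251, edgeR). Znrf3, the second ligase, had a log2FC of -0.06 (interval -0.29 to 0.18). Lgr6 and the other R-spondin genes did not reach the level needed for testing. The log2FC of Rnf43 was -0.19 with the line as a term.

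Wnt target and negative feedback genes tended to lie slightly under WT without any edgeR call. DESeq2 without a prior called Nkd1, Sp5 and Sfrp5 of them lower. Of 26 tested, 21 had a negative log2FC, 17 (65.4%) were held within 2-fold and the median was -0.27. An unadjusted p under 0.05 was found for 9 (13.3% of all genes). Lower without overlap were 3 (0.748% of all genes). The most abundant members were Myc, the growth regulator, with a log2FC of -0.13 (interval -0.34 to 0.08), and Zfp703, a transcriptional repressor gene, with -0.25. Axin2, the feedback gene most used to read Wnt activity, had 149, 97.1, 110, 124 and 83.8 CPM in 15d, 4d, M, F and NAIVE_F. WT had 109 to 225 CPM around a median of 134, so NAIVE_F and 4d lay under the range and the other 3 inside it. Its FPKM was 26.7 ± 5.78 (SD, n = 5) against 32.5 ± 10.1 (SD, n = 6), with p = 0.299 in the exact permutation test. Sp5, a Wnt-induced transcription factor gene, had 1.19, 0.510, 2.95, 2.96 and 4.63 CPM in the same order and 3.86 to 9.40 in WT. NAIVE_F alone reached the WT range, and the log2FC of -1.55 (SE 0.46) had an adjusted p of 0.246 (edgeR). It was -0.79 with the line as a term and -2.04 without NAIVE_F and LIPO. Sfrp5, a secreted Wnt inhibitor gene, had 0.107 to 0.329 CPM in P-Rspo3, but WT was spread from 0.220 to 3.34. The same list had a median of -0.34 between dox-naive and flox WT, -0.06 inside the high set and -0.51 inside the low set. With the line as a term the list had -0.11, Axin2 -0.12 and Zfp703 -0.10. The flox WT replicate 6 was the highest WT library for this list, with a median 0.39 above the mean of WT, and WT LIPO the lowest, at -0.23.

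Downstream of the receptors levels were held. All 22 tested genes of the destruction complex and the TCF factors were held within 2-fold, with a median of -0.05. Ctnnb1, which encodes beta-catenin, had a log2FC of -0.03 and Csnk1a1, a kinase gene of the complex, 0.06. Among 17 Wnt ligands, Frizzleds and co-receptors, 10 (58.8%, beside 75.0% of all genes) were held and the median was -0.12. The most abundant Frizzled gene, Fzd5, had a log2FC of 0.14 and the co-receptor gene Lrp5 -0.12. Fzd8, a low Frizzled gene, did not overlap between the groups. It had 0.445 to 1.03 CPM against 1.13 to 1.77 (log2FC -1.02, SE 0.25, adjusted p = 0.190, edgeR). Fzd8 was called lower by DESeq2 without a prior.

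Some low genes were separated from WT in every P-Rspo3 library, among 119 genes (0.748%) that were lower without overlap. The study called Cul9, Sdc2, Rps6ka6, Nkd1, Ptk7, Gm37844, Sardh and Cpq lower with DESeq2 in these samples. Their direction is therefore not independent evidence here. The paper also presents qRT-PCR, another measure of RNA level, for each of these genes, which was not part of the data used here. In all 8 the highest P-Rspo3 library lay under the lowest WT library. None was called by edgeR, with adjusted p from 0.0856 to 0.134, while DESeq2 without a prior called them all lower. Nkd1, a Wnt-induced inhibitor of Dishevelled, had 0.239, 0.306, 0.128, 0.678 and 0.482 CPM in 15d, 4d, M, F and NAIVE_F and 0.935 to 3.80 in WT, a log2FC of -2.54 (SE 0.47). The lowest WT libraries were NAIVE and LIPO, the dox-naive ones, and within the WT lines the log2FC of Nkd1 was -1.30. Ptk7, a Wnt co-receptor gene of planar polarity, had 0.680 to 1.56 CPM in P-Rspo3 and 1.95 to 10.4 in WT (log2FC -2.41, SE 0.46). Sdc2, a syndecan proteoglycan gene, had 0, 1, 2, 2 and 3 reads in 15d, 4d, M, F and NAIVE_F and 10 to 58 in WT. Cul9, a cullin gene, had 4 to 7 reads in P-Rspo3 and 31 to 268 in WT, where replicates 5 and 6 were far above the others. Rps6ka6, a ribosomal S6 kinase gene, had 1, 0, 8, 6 and 7 reads against 20 to 71. Counts this low make the fitted log2FC of -4.10 for Sdc2, -4.32 for Cul9 and -3.20 for Rps6ka6 imprecise.

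The remaining 3 were Cpq, Sardh and Gm37844. Cpq, a carboxypeptidase gene, had 1.64, 3.60, 4.27, 3.75 and 4.26 CPM in 15d, 4d, M, F and NAIVE_F and 7.75 to 11.8 in WT, with both groups tight except for 15d (log2FC -1.44, SE 0.23). Sardh, a mitochondrial enzyme gene, had 0.717 to 2.21 CPM against 3.34 to 9.15 (log2FC -1.97, SE 0.36). Gm37844 had 0.102 to 1.41 CPM against 2.46 to 5.99 (log2FC -2.29, SE 0.45). Tnfrsf19, a Wnt target and stem cell marker outside the 8, was separated in the same way, with 0.204 to 1.97 CPM against 2.22 to 15.2 (log2FC -3.09, SE 0.56, adjusted p = 0.134, edgeR). WT NAIVE was the lowest WT library for Tnfrsf19 and lay close to NAIVE_F. Tnfrsf19 was called lower by DESeq2 without a prior.

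Since the 9 genes were picked for groups that do not overlap over all 11 libraries, their direction inside each set was fixed by that choice, and only the sizes are given. Inside the high set the log2FC was -1.48 for Nkd1, -2.24 for Ptk7, -1.96 for Gm37844, -1.26 for Cpq, -1.49 for Sardh, -3.96 for Cul9, -4.26 for Sdc2, -3.98 for Rps6ka6 and -1.34 for Tnfrsf19. Inside the low set, where NAIVE_F met 5 WT libraries, the values were -2.28, -1.87, -1.54, -1.20, -1.65, -3.95, -3.15, -2.29 and -2.44 in the same order. With 1 library in a group, no call inside a set is read for the 9 genes. Nkd1 had -1.56, Ptk7 -1.60, Gm37844 -2.09, Cpq -1.16, Sardh -1.35, Cul9 -3.36, Sdc2 -3.81, Rps6ka6 -3.40 and Tnfrsf19 -1.94 with the line as a term. The number of lower calls depended on single libraries and on the test. Without WT NAIVE, 13 genes were called lower, 5 of the 8 among them, and 49 higher, of which 41 belonged to the 92 genes that divide the sets. Without WT 1, 4 genes were called lower (Sdc2, Cul9, Hsbp1l1 and Trim35), and without P-Rspo3 15d, Cpq alone. DESeq2 without a prior called all 8 lower.

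**Figure D4:**
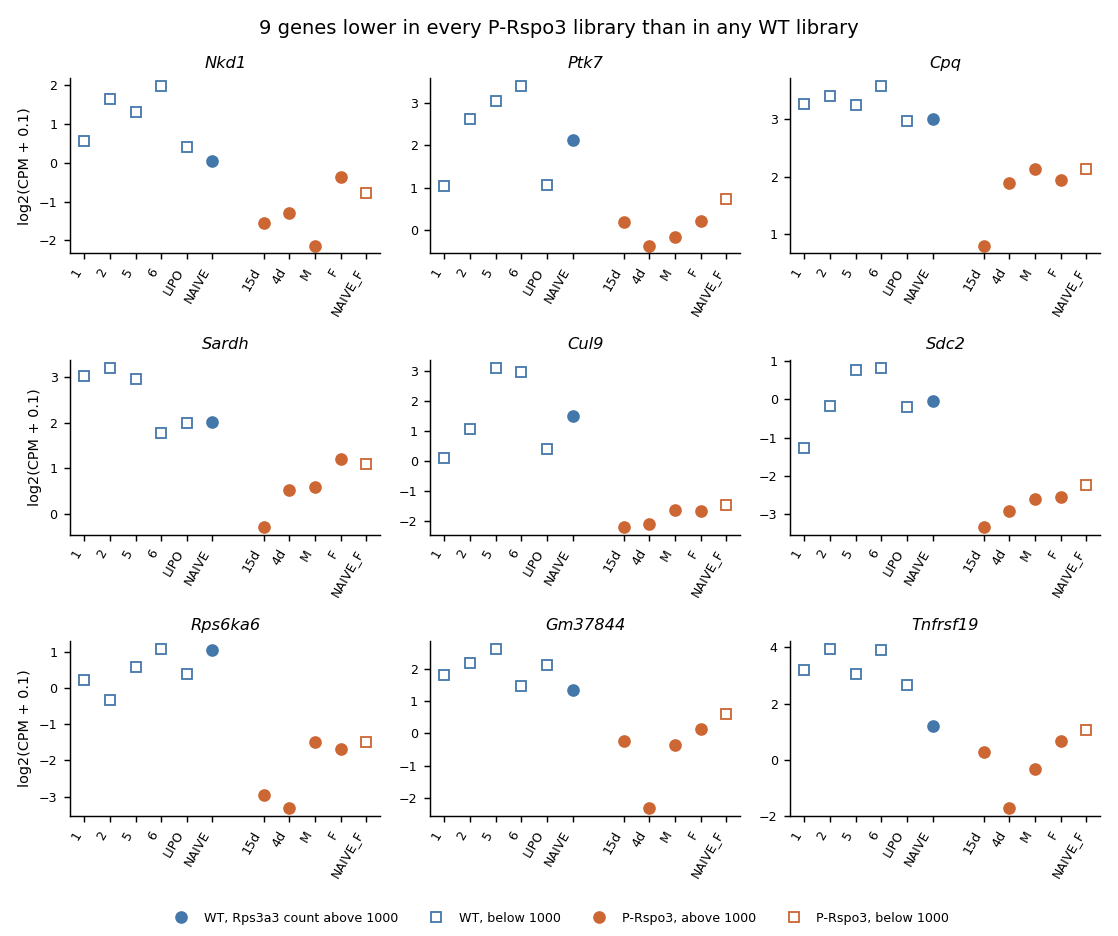
log2(CPM + 0.1) on the vertical axis of 9 genes in the 6 WT libraries (blue) and the 5 P-Rspo3 libraries (orange). Filled circles are the high set and open squares the low set. Every orange point lies below every blue point, with the smallest distance in Tnfrsf19, at 1.97 CPM in NAIVE_F and 2.22 CPM in WT NAIVE.

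Crypt stem cell markers were mostly held. Tnfrsf19, described above, is one of them. Of 19 tested, 17 had a negative log2FC, 18 (94.7%) were held within 2-fold and the median was -0.28, against -0.34 between dox-naive and flox WT. The median was 0.04 against dox-naive WT alone and with the line as a term. Olfm4, the most abundant marker, had a log2FC of -0.31 (interval -0.85 to 0.22), Ascl2, a stem cell transcription factor gene, -0.40 (interval -0.89 to 0.09), and Slc12a2, an ion transporter gene of the crypt base, -0.06. NAIVE_F had the least Ascl2 of all libraries, with 9.12 CPM, while the other P-Rspo3 libraries had 15.2 to 22.5 and WT 18.7 to 33.2. The library medians of the list ran from -0.38 to -0.05 in P-Rspo3 and from -0.33 to 0.50 in WT. Olfm4 had 0.14 and Ascl2 -0.15 with the line as a term. For Ascl2 the log2FC inside the low set was -1.41, with NAIVE_F under every WT library, while the groups overlapped over all libraries. Aqp4, a water channel gene, had the largest positive log2FC, 0.57 (SE 0.19, adjusted p = 0.269, edgeR), and overlapped in NAIVE_F. Bmi1, a Polycomb gene, had 42.8 to 45.1 CPM in P-Rspo3 and 26.3 to 42.5 in WT, close to each other but without overlap (log2FC 0.33, and 0.13 with the line as a term).

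Among differentiated cell types, no gene was called by edgeR in either direction. The calls of DESeq2 without a prior included the tuft cell genes Ltc4s and Siglecf, both lower. Paneth cell products had a median of -0.16 over 18 genes, with Defa24, a defensin gene, at -0.16 (interval -0.61 to 0.28) and Lyz1, the lysozyme of Paneth cells, at -0.31 (interval -0.81 to 0.20). The median of this list turned with the comparison, to 0.20 against dox-naive WT and with the line as a term and to 0.11 inside the high set, against -0.60 inside the low set. Lyz1 likewise turned to 0.20 with the line as a term. Library medians of the list ranged widely in P-Rspo3, from -0.94 in 4d to 0.57 in 15d. Goblet cell genes had a median of 0.16 over 15 genes, with Muc2, the main secreted mucin, at 0.59 (interval 0.16 to 1.02, adjusted p = 0.273, edgeR) and Tff3, a trefoil peptide gene, at 0.17. Enteroendocrine genes had a median of 0.05 over 24 genes, 11 of them held, and of -0.28 without NAIVE_F and LIPO. Their median was -0.11 inside the high set and 0.62 inside the low set. Of 35 enterocyte and brush border genes, 30 had a negative log2FC and 22 were held, with a median of -0.18. Apoa1, an apolipoprotein gene, had 342, 242, 339, 334 and 516 CPM in 15d, 4d, M, F and NAIVE_F and up to 1311 in WT, with a median of 623 (log2FC -0.98, SE 0.31, adjusted p = 0.253, edgeR). Fabp1, the fatty acid binding protein of absorptive cells, was lowest in 15d, with 304 CPM, and had a log2FC of -0.81 (interval -1.63 to 0.01). Krt20, which marks differentiated epithelium, had 38.9 ± 21.5 FPKM (SD, n = 5) against 50.9 ± 28.3 (SD, n = 6) and passed no test (exact permutation test, p = 0.463).

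Tuft cell genes showed the lowest median of the cell type lists. Tuft cells are chemosensory cells that start immune responses. Of 15 genes tested, 14 had a negative log2FC (48.4% of all genes), with a median of -0.81. An unadjusted p under 0.05 was found for 9 (13.3% of all genes). None was called by edgeR and only 3 were held within 2-fold, while DESeq2 without a prior called Ltc4s and Siglecf lower. Ltc4s, a leukotriene synthase gene, had 0.448, 0.306, 0.225, 0.428 and 0.482 CPM in 15d, 4d, M, F and NAIVE_F and 0.565 to 1.57 in WT, so that the groups did not overlap (log2FC -1.38, SE 0.30, adjusted p = 0.156, edgeR). Siglecf, a sialic acid receptor gene of tuft cells, had 0.836, 0.748, 0.674, 0.928 and 0.853 CPM against 1.06 to 3.05 (log2FC -1.17, SE 0.31, adjusted p = 0.206, edgeR). Alox5ap, a helper of leukotriene synthesis, and Sh2d6, an adaptor gene, were the most abundant members, with log2FC of -0.86 and -0.87. Hpgds, a prostaglandin synthase gene, was the exception, at 1.31 (-0.40 inside the low set), with 28.5, 11.3, 2.09, 10.7 and 3.08 CPM against 1.85 to 6.89. Dclk1, the marker most used for tuft cells, had 3.82 to 9.35 CPM in P-Rspo3 and 6.85 to 14.1 in WT, with a log2FC of -0.61.

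The tuft list also differed between the WT lines, in the other direction. Dox-naive WT lay above flox WT with a median of 0.67, and Siglecf had 3.05 and 2.81 CPM in LIPO and NAIVE but 1.06 to 1.54 in the flox lines. The median library values were 0.39 in LIPO and 0.63 in NAIVE, -0.36 to -0.09 in flox WT and -1.13 to -0.27 in P-Rspo3. Against dox-naive WT alone the median was -1.31, inside the high set -1.39 and inside the low set -0.24. With the line as a term Siglecf was called lower, but against dox-naive WT alone it was not called. In whole cultures, fewer tuft cells and less RNA of these genes per cell cannot be told apart.

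Genes of MHC antigen presentation had negative values too. Of 21 tested, 20 had a negative log2FC (48.4% of all genes) and 11 were held, with a median of -0.48. An unadjusted p under 0.05 was found for 11 (13.3% of all genes). B2m, the light chain of class I, had a log2FC of -0.24 (interval -0.55 to 0.07) and H2-K1, a class I heavy chain, -0.36 (interval -0.65 to -0.07). Cd74, the class II invariant chain, was barely read, with at most 0.185 CPM in P-Rspo3 and 0.115 to 1.45 in WT (log2FC -2.88, SE 0.80, adjusted p = 0.222, edgeR). H2-Q6, a non-classical class I gene, had 0.687, 0.0680, 0.707, 0.428 and 2.45 CPM in 15d, 4d, M, F and NAIVE_F and 1.60 to 7.40 in WT, and NAIVE_F lay inside the WT range. Its log2FC of -2.15 became -1.32 with the line as a term and -3.16 without NAIVE_F and LIPO. Both Cd74 and H2-Q6 were called lower by DESeq2 without a prior. Class I genes are near-identical copies that can share reads. The median was 0.03 between dox-naive and flox WT, -0.75 inside the high set and -0.22 inside the low set. Interferon-stimulated genes had a median of -0.12 over 25 genes, of which 9 were held, but -0.47 inside the high set, -0.73 inside the low set and -0.26 with the line as a term. Antimicrobial and host defence genes had -0.01 over 16.

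Nearly all proliferation and growth genes were held. All 26 DNA replication genes tested were held within 2-fold, with a median of 0.01. Pcna, the sliding clamp, had a log2FC of -0.16 (interval -0.34 to 0.02). All 25 mitosis and G2/M genes were held too, and 23 of them had a positive log2FC, with a median of 0.16. Cdk1, the mitotic kinase, had a log2FC of 0.13 (interval -0.08 to 0.33), and Kif23, a kinesin gene of cytokinesis, 0.36 (interval 0.15 to 0.57, adjusted p = 0.212, edgeR). Kif23 had 112, 113, 109, 78.0 and 96.6 CPM in 15d, 4d, M, F and NAIVE_F and 71.7 to 89.6 in WT, and F alone lay inside the WT range. The mitosis list had -0.07 between the WT lines, 0.18 inside the high set and 0.20 inside the low set. F was again the exception, with a library median of -0.15, while the other P-Rspo3 libraries had 0.16 to 0.35. Of 15 D cyclins and CDK inhibitors, 14 were held, with a median of 0.09. The 27 genes of the MYC network and ribosome biogenesis were all held, with a median of 0.05 and Npm1, a nucleolar chaperone gene, at 0.12.

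Medians of the other signalling lists lay between -0.19 and -0.03. The BMP pathway, which opposes stem cell renewal, had a median of -0.19 over 17 genes, of which 12 were held and 3 did not overlap, all lower (0.748% of all genes). Its median was 0.10 inside the high set. Bmp7, a ligand gene, had 13.5, 2.52, 6.29, 10.4 and 10.1 CPM in 15d, 4d, M, F and NAIVE_F and 14.7 to 24.8 in WT, without overlap (log2FC -1.20, SE 0.33, adjusted p = 0.217, edgeR). Id3, a BMP target gene, had 9.59, 6.32, 11.5, 3.57 and 10.0 CPM against 11.9 to 21.1 (log2FC -0.88, SE 0.26, adjusted p = 0.251, edgeR). Bmp7 had -0.84 and Id3 -0.71 with the line as a term. Bmp7 was called lower by DESeq2 without a prior. Bmp3, a gene of an antagonistic ligand, had the opposite sign, with 10.8 to 33.4 CPM against 5.34 to 17.1 (log2FC 1.07, SE 0.35). Smad7, an inhibitor gene of the pathway, had 5.47 to 6.63 CPM against 6.93 to 9.98 (log2FC -0.41, adjusted p = 0.275, edgeR). The Notch pathway had a median of -0.04 over 21 genes, 18 of them held, and Hes1, its main effector, had -0.07. These became 0.16 and 0.20 with the line as a term. YAP targets had -0.13 over 14 genes, of which 10 were held, ERBB receptors with EGF ligands and ERK feedback genes -0.09 over 22, of which 21 were held, and receptor tyrosine phosphatases -0.15 over 13. Fetal spheroid and regenerative genes had -0.03 over 11 genes, of which 6 (54.5%) were held, with -0.24 inside the high set and -0.57 inside the low set, and stress and immediate early genes -0.09 over 21.

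Most metabolic genes tested were held, fewest among cytochrome P450 genes. All 28 genes of cholesterol and fatty acid synthesis tested were held, with a median of -0.02 and Scd2, a desaturase gene, at -0.04. Glycolysis and gluconeogenesis genes had a median of -0.21, with 22 of 24 negative and 21 held, and Ldha, lactate dehydrogenase, at -0.25. The median of this list was -0.36 without NAIVE_F and LIPO and -0.05 with the set of libraries as a term. Inside the high set it was -0.16 and inside the low set -0.02. Fatty acid oxidation and ketogenesis had -0.13 over 23 genes (19 held), retinoic acid metabolism -0.10 over 17 (14 held) and cytochrome P450 genes -0.17 over 21 (13 held, or 61.9%). With the line as a term the first had -0.24 and the second -0.25. Cyp2d22, a P450 gene, was the one member of its list without overlap, with 1.11, 1.05, 2.51, 4.67 and 3.60 CPM in 15d, 4d, M, F and NAIVE_F and 5.04 to 67.8 in WT (log2FC -3.16, SE 0.72, adjusted p = 0.180, edgeR). Its log2FC was -2.06 with the line as a term, and DESeq2 without a prior called it lower. Cyp2d22 belongs to a family of similar genes that can share reads. The mitochondrially encoded genes tested had a median of 0.06 over 6, but -0.21 inside the high set and 0.29 inside the low set.

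The cultures were epithelial in both groups. Of 14 pan-epithelial markers 13 were held, and their summed level was 3188 to 3760 FPKM in P-Rspo3 and 3278 to 3924 in WT. Epcam, the epithelial adhesion gene, had a mean FPKM of 334 in P-Rspo3 and 339 in WT, Cdx2, the intestinal identity factor, 76.9 and 77.9, and Gata4, which marks the proximal small intestine, 83.7 and 89.0. Intestinal identity factors as a list had a median of -0.09 over 19 genes. Of 14 fibroblast and smooth muscle markers 2 reached the level needed for testing. Their summed level was 1.53 to 8.16 FPKM in P-Rspo3 and 2.29 to 4.92 in WT, most of it Vim, the intermediate filament of mesenchymal cells, with NAIVE_F the highest library. Pdgfrb, a receptor gene of mesenchymal cells, had 0.927 to 4.33 CPM against 0.514 to 1.35 (log2FC 1.23, adjusted p = 0.235, edgeR). Immune markers summed to 1.25 to 3.62 and 1.96 to 3.25 FPKM, and endothelial and neural markers reached at most 10.1 and 9.52. The part of these cells in the results was not tested. Ptprc, the pan-leukocyte gene, had a mean FPKM of 0.0587 and 0.125.

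The line difference was measured within WT, where no library carries the fusion. Both dox-naive libraries and flox WT 6 were high in Xist, and flox WT 1, 2 and 5 were low, as described below. The line and this difference therefore cannot be fully told apart, here or in fits with the line as a term. Of 16782 genes tested, 21 were called higher in dox-naive WT than in flox WT (0.125%) and none lower (0.00%; 1067 genes, or 6.36%, had an unadjusted p under 0.05, and DESeq2 without a prior called 21 lower). The 21 genes include 3 pseudogenes and 2 defensin genes. Nqo1, a quinone reductase gene, had 510 and 473 CPM in LIPO and NAIVE and 144 to 227 in the flox lines (log2FC 1.31, SE 0.17, adjusted p = 0.0448, edgeR). Hmox1, heme oxygenase, had 25.8 and 28.5 against 7.77 to 12.1 (log2FC 1.46, SE 0.18, adjusted p = 0.0293, edgeR). Gsta2, a glutathione transferase gene, had 207 and 198 against 83.0 to 96.9 (log2FC 1.18, SE 0.09, adjusted p = 0.00392, edgeR). Ddc, Aldh1a1, Ugdh and Slc5a4b, genes of amine synthesis, retinal oxidation, glucuronide synthesis and sugar transport, were also called, with log2FC of 1.38, 1.23, 1.08 and 1.17. Larger differences were found in Gm9855, a pseudogene (log2FC 6.61), and in the Paneth cell defensin genes Defa27 (5.29) and Defa35 (5.06), which belong to a family of near-identical genes. Most of these calls depended on single libraries. In fits that each lacked 1 flox library, Gsta2, Gm9855, Gm4737, Gm6472, Pcna-ps2 and Eif3j2 kept their call every time. Ddc lost its call without WT 2. Nqo1 kept it only without WT 5, Hmox1, Aldh1a1 and Slc5a4b only without WT 1, and Defa35 only without WT 2. Ugdh and Defa27 lost it every time.

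In P-Rspo3 these 21 genes did not follow the line as a whole. P-Rspo3 F was nearer to dox-naive WT than to flox WT in 18 of the 21 genes, 15d and M in 10, 4d in 9 and NAIVE_F in 0. Nqo1 showed this pattern, with 438 CPM in F and 156, 245, 213 and 236 in 15d, 4d, M and NAIVE_F. Gsta2 had 232 CPM in F and 53.3 to 124 in the others. Of the 21 genes, 20 were tested between P-Rspo3 and WT, all but Ttll11, and none of them was called. For the NRF2 and glutathione list, the oxidative stress genes to which Nqo1 and Hmox1 belong, the median of 22 genes was 0.43 between the WT lines and -0.14 between P-Rspo3 and WT. UGT, GST and SULT enzymes, which conjugate foreign compounds, had 0.38 and -0.07 over 28 genes. With the line as a term the medians between P-Rspo3 and WT were -0.36 for the NRF2 list and -0.38 for the conjugating enzymes. Both comparisons use the same dox-naive libraries.

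**Figure D5:**
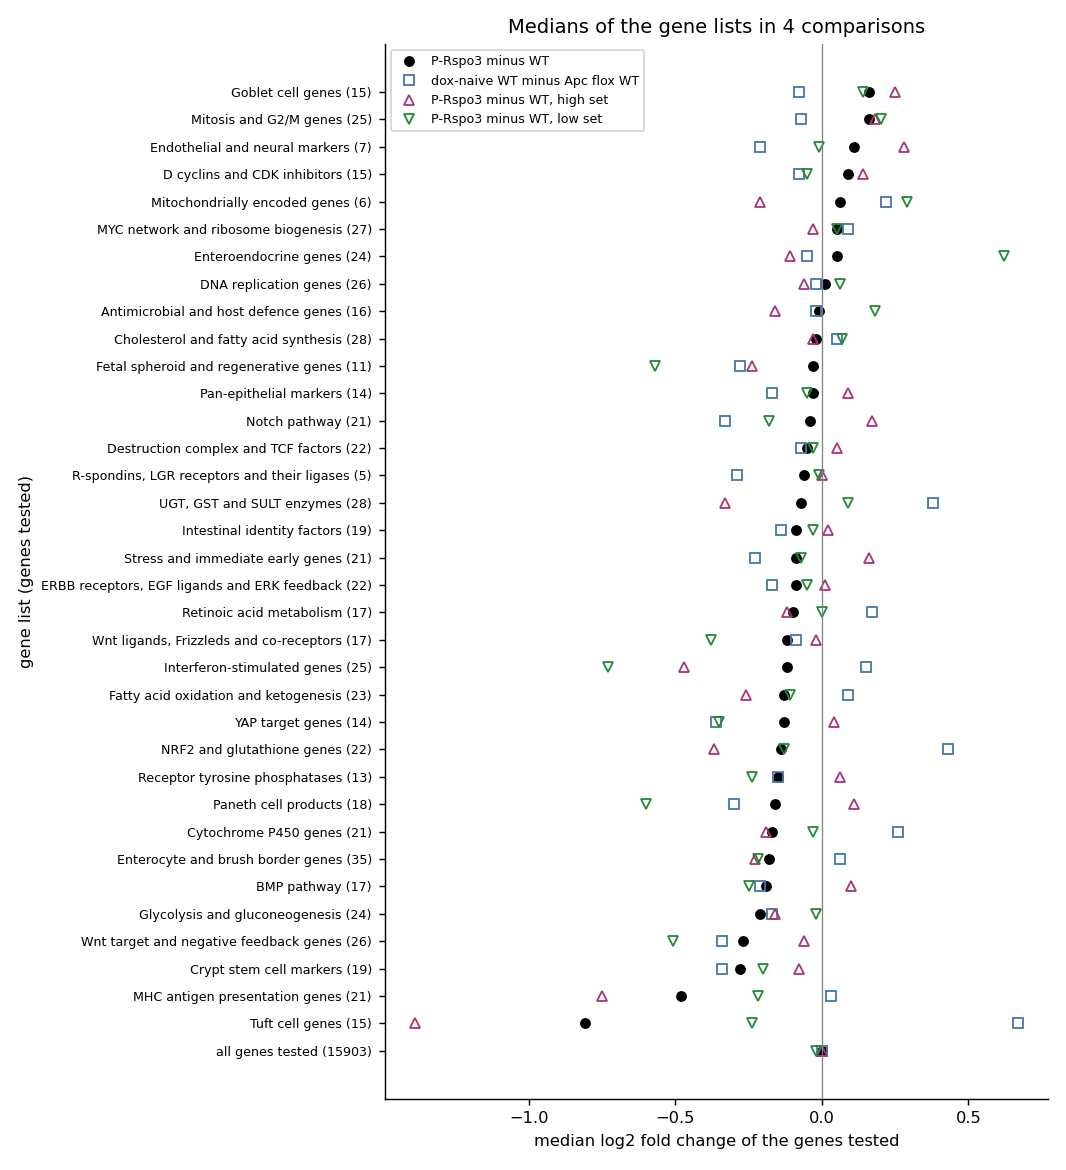
Median log2FC of the genes tested in each list, on the horizontal axis, in 4 comparisons that share libraries. Filled circles are P-Rspo3 minus WT, squares dox-naive minus flox WT, upward triangles P-Rspo3 minus WT in the high set and downward triangles in the low set. Tuft cell genes lie at -0.81 for P-Rspo3 minus WT and at 0.67 for the line difference, and DNA replication genes lie near 0 in all 4.

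Against dox-naive WT alone, Rspo3 was the single gene called higher (0.00589%) and St6galnac6, Tpm3-rs7 and Xist were called lower (0.0177%) among 16982 genes. St6galnac6, a sialyltransferase gene, had 8 or 9 reads in each P-Rspo3 library, 61 in each of LIPO and NAIVE and 10 to 26 in the flox lines (log2FC -2.96, SE 0.24, adjusted p = 0.00726, edgeR). Tpm3-rs7, a gene related to tropomyosin, had 37 to 57 reads in P-Rspo3, 33 to 59 in the flox lines, and 1397 and 371 in LIPO and NAIVE. Tpm3-rs7 thus stood apart in the dox-naive libraries and not in P-Rspo3. With the line as a term 4 genes were called lower (0.0252%), St6galnac6, Tpm3-rs7, Siglecf and Gm7292. Without NAIVE_F and LIPO that fit called 3 genes lower (0.0188%), of which Tpm3-rs7 was also among the 4.

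Xist, the RNA that silences 1 X chromosome in female cells, had 25, 52, 24, 28 and 32 reads in 15d, 4d, M, F and NAIVE_F. Among WT it had 37799 reads in replicate 6, 24429 in LIPO and 5855 in NAIVE, and 11 to 31 in replicates 1, 2 and 5. The Y-linked genes varied in another way. Uty had 602 reads in 4d, 96 in M, 674 in NAIVE_F and 0 in 15d and F, while Kdm5d had 792 reads in NAIVE_F and at most 1 in the other P-Rspo3 libraries. Eif2s3y had 251, 1100 and 2688 reads in WT 1, 2 and 5 and at most 1 in every P-Rspo3 library. Both dox-naive WT libraries were high in Xist and no P-Rspo3 library was, so within the dox-inducible lines Xist and the fusion cannot be told apart.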

How the data were processed

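RNA from 15 organoid cultures had been sequenced, and the 5 P-Rspo3 and 6 WT libraries were compared. Per the submitters' processing notes and the paper's methods, STAR was used for alignment on GRCm38. The authors deposited raw HTSeq 0.6.0 counts for Ensembl genes, and FPKM made with Cufflinks 2.2.1. The strand setting of the counting is not given in the sources used here, so overlapping genes cannot be told apart. Of 43629 genes in the count table, 43437 also had FPKM and 42462 were paired with a symbol from GENCODE.

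The test was edgeR 4.0.16 under R 4.3.3 on those counts (TMM, glmQLFit and glmQLFTest, Benjamini-Hochberg adjustment over all genes tested), for genes that reached 0.1 FPKM in 5 or more libraries (2 or more for the line difference). CPM are TMM-normalized. A gene was called at an adjusted p under 0.05 and an absolute log2FC above 1. FPKM of 12 genes were compared by two-sided exact permutation tests (scipy), adjusted over the 12. DESeq2 1.42.0 and limma 3.58.1 were alternatives.

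Genes named are, for each list, called members, the 2 with the largest absolute log2FC and the 2 with the highest FPKM, up to 10 called genes in each direction, genes between Ptprk and Rspo3, and called genes from Eif5 to Tedc1. Other list members, genes that divide the sets, genes called only in an alternative, and X- and Y-linked genes were chosen after their values were seen. The members, the 41 lists and the tests were chosen with earlier results of these data known. A count of 3 or fewer is read as not detectable, and the interval of the Rspo3 ratio covers counting error only, while intervals of log2FC come from the fit over libraries. The library pairs differed by more than sampling noise. Among the fits, the 4 Apc libraries entered only 1 alternative, that of all 15 libraries. They were also scaled together with the 11 libraries to find the 92 genes that divide the sets, and compared with them there.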

Additional observations from a re-analysis of the deposited data

Results flagged for a closer look

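For 29 genes the libraries of each group were checked for 1 library far from the rest, as the gap to its neighbour over the range of the group, in log2(CPM + 0.1). Of 57 pairs of a gene and a group, 5 were past the critical value (0.71 for 5 libraries, 0.625 for 6), where chance alone gives about 1 in 20.

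P-Rspo3 replicate 15d was the lowest of 5 in 3 of them. Rnf146 had 16.3 CPM in 15d and 32.6 to 35.2 in the other P-Rspo3 libraries (ratio of gap to range 0.898). Echdc1 had 10.4 CPM against 20.7 to 24.7 (0.792). Both lie between Ptprk and Rspo3. Cpq, on chromosome 15, had 1.64 CPM against 3.60 to 4.27 (0.820).

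WT replicate 6 was the highest of 6 in the other two. Ptprk had 143 CPM against 105 to 112 (0.770), and Sox9, a transcription factor of the crypt base, had 74.6 CPM against 47.8 to 54.6 (0.699).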

How the results depend on the processing

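Genes called higher between P-Rspo3 and WT numbered 1 in most alternatives. They were 14 with DESeq2 without a prior, 0 with NAIVE_F put in WT by its title and LIPO left out, and 1 to 49 over the fits that each left out a library, 49 without WT NAIVE. Genes called lower numbered 0, but 80 with DESeq2 without a prior, 1 with a prior, 2 with the newer form of the quasi-likelihood test, 5 with all 15 libraries in 1 fit, 3 against dox-naive WT only, 4 with the line as a term, 3 with that term and without NAIVE_F and LIPO, and 0 to 13 with each library left out, 13 without WT NAIVE and 4 without WT 1. In alternatives added after seeing the data, they were 4 with the line as a term without NAIVE_F and 3 against dox-naive WT without NAIVE_F. Calls inside the sets are left out, since 1 group there holds a single library. The line difference of 21 higher and 0 lower became 76 and 21 with DESeq2, 50 and 1 without a filter, 0 higher with NAIVE_F in place of LIPO, and 7 to 47 higher and 0 to 1 lower with each library left out, 47 without LIPO and 7 without NAIVE, 8 without WT 2, and 11 without WT 5 or WT 6. Where a fit left 1 library in a group, that library was assumed to vary like the others. The causes were not tested.

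The log2FC of Lgr5 turned positive against dox-naive WT (0.11), with the line as a term (0.11), and without NAIVE_F in both (0.0330 and 0.0337). The FPKM difference of Echdc1 turned to 0.60 without NAIVE_F and LIPO. Of 645 values of 21 single genes between P-Rspo3 and WT, 603 kept direction and side of the threshold. A call was gained in 36 and lost in 2, and 4 turned direction. The 8 genes of the study are among the 21. Since their groups do not overlap, their direction was fixed wherever a fit only left out libraries, and it adds no support. Of 117 values of 10 genes of the line difference, 63 did and 54 lost the call with the same direction. Of 624 list medians, 596 moved by less than the spread between P-Rspo3 libraries, and 14 of the 28 others moved with the line as a term, among them tuft cell genes (-1.31) and, with a change of sign, crypt stem cell markers (0.04) and the Notch pathway (0.16). The median of Paneth cell products also changed sign there (0.20), within that spread.

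No paired analysis was possible because WT and P-Rspo3 share no replicate number. With 4 against 1 and 1 against 5 libraries, the comparisons inside the sets can show only large differences, and genes with a few reads per library are limited by depth.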
